A study of Mus musculus with 13 samples.

Results

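The genes described here encode subunits of activator protein 1 (AP-1) and close relatives, and were measured in microglia, the resident macrophages of the brain, from mice exposed to repeated social defeat. The 9 genes, Fos, Fosb, Fosl2, Jun, Junb, Jund, Atf3, Maff and Batf3, were taken by symbol from a table of 14518 gene entries, and all 9 were found there. Repeated social defeat (RSD), in which an aggressive mouse is placed in the home cage, is a model of psychosocial stress. There were 7 RSD samples (numbers 10, 11, 12, 13, 2, 7 and 8), taken 24 days after the last of 6 cycles from C57BL/6 mice described as adult, 2 months of age. There were 6 control (CON) samples (numbers 17, 18, 19, 1, 4 and 5) from mice of the same strain and age, 2 months, without defeat. In both groups the cells were enriched on Percoll and sorted for CD11b and intermediate CD45. No allele or transgene is named for either group, and the labels do not tie samples to separate animals, so that p-values here reflect only how the samples varied, which may in part be technical.

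AP-1 is a dimer of basic leucine zipper proteins, in which a Fos or ATF family protein pairs with a Jun family protein, and Jun proteins can also pair with each other. Most of its genes are immediate early genes, transcribed within minutes of growth factor, cytokine, calcium or stress signals without new protein synthesis, through serum response factor, CREB and MEF2 at their promoters and through MAP kinases that phosphorylate the proteins. Their mRNAs are short-lived, and in microglia and other macrophages AP-1 acts with the lineage factor PU.1 at many enhancers. Jund is the family member that is usually expressed steadily, Atf3 is an ATF family protein known from stress responses, Maff is a small Maf protein without a transactivation domain, and Batf3 is known for its part in the development of dendritic cells.

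Promoter sequences of a pair of fos family genes and a pair of jun family genes are shown, because Fos and Jun varied together across these libraries and Junb varied less with Fos. Each is the stretch just before the start site in RefSeq (GRCm38.p6), read 5′ to 3′ on the strand of the gene. Start sites are those of RefSeq, and of the 9 genes only Fos, Jun and Maff have 1 that coincides with the gene models given below. Capitals mark TGACG, the core of the cyclic AMP response element bound by CREB and ATF proteins, TGANNTCA, a form of that element bound by Jun and ATF dimers, and TATAAA, the TATA box.
Fos, chr12:85473770-85473889, plus strand: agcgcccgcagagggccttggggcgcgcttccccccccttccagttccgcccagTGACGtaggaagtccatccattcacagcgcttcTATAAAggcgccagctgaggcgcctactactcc
Jun, chr4:95052223-95052342, minus strand: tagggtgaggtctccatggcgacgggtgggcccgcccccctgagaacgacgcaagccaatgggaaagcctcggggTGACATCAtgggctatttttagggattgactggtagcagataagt
Fosb, chr7:19310052-19310171, minus strand, without the 6 bases next to the start site: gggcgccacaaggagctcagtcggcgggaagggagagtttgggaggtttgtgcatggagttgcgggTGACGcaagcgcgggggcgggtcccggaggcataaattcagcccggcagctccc
Junb, chr8:84978749-84978868, minus strand: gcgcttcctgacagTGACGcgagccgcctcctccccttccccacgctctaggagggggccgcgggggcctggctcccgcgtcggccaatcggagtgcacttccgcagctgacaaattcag
In the 250 bases before each start, TGACG on either strand was found for 5 of the 9 genes (Fos, Fosb, Junb, Atf3 and Maff) and in 17.8% of all 32851 promoter windows searched. In the Fos window it began 66 and, outside the stretch shown, 129 bases before the start, and the TATA box began 33 bases before it; TATAAA on the gene's strand was found in 7.59% of all windows and for no other of the 9 genes. TGANNTCA, which like TGACG is also matched by the full palindrome TGACGTCA, was found for Jun, Jund and Maff and in 11.9% of windows, and in the Jun window it began 45 bases before the start. That palindrome was found for Maff alone, in 1 of its windows, against 1.55% of windows, and the consensus AP-1 site TGANTCA was found for none of the 9, against 6.75% of windows. A match describes these letters and is not evidence of binding.

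The deposited values are reads per gene divided by a size factor for each library, called normalized reads here. Behind them were 9.76 to 12.3 M reads per library. RSD libraries averaged 10.8 ± 0.826 M reads and CON libraries 11.3 ± 0.979 M (SD, n = 7 and 6, two-sided exact permutation test, p = 0.335). All 10 microglial markers were in the table and high in every library, with sums between 305624 and 323602 normalized reads across RSD libraries and between 201252 and 324844 across CON libraries. CON 18 stood apart: its median Spearman correlation with the others was 0.948, its microglial sum was the lowest of the 13, and 7 markers of border macrophages summed to 33130 there (normalized reads), against at most 8564 elsewhere. RSD 8 stood apart in another way: its deviation from the mean of all libraries had a Spearman correlation with transcript GC content of -0.72, against -0.50 in RSD 2 and -0.04 to 0.48 in the other 11 libraries.

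The 9 genes fell into an abundant and a scarce set. Per kilobase of exon, the median level over the 13 libraries was 14910 normalized reads for Jun, 8846 for Fos, 5764 for Jund, 3523 for Junb, 1611 for Fosb and 1572 for Atf3. On the same scale it was 51.6 for Batf3, 35.2 for Maff and 22.8 for Fosl2. Jun ranked 14th, Fos 23rd and Jund 40th among 12365 genes with a length, while Fosl2 ranked 9455th. The order was steady: Jun exceeded Fos in 13 of 13 libraries, Fos exceeded Jund in 12, and Jund exceeded Junb, and Junb exceeded Fosb, in all 13. The weakest steps were Fosb over Atf3 and Batf3 over Maff, each in 11 of 13 libraries. The 9 genes together took 0.551% (RSD 8) to 1.12% (CON 19) of all reads, and Jun alone gave 43.0 to 49.8% of their summed normalized reads. Counting error adds most to the spread of the 3 scarce genes.

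**Figure D1:**
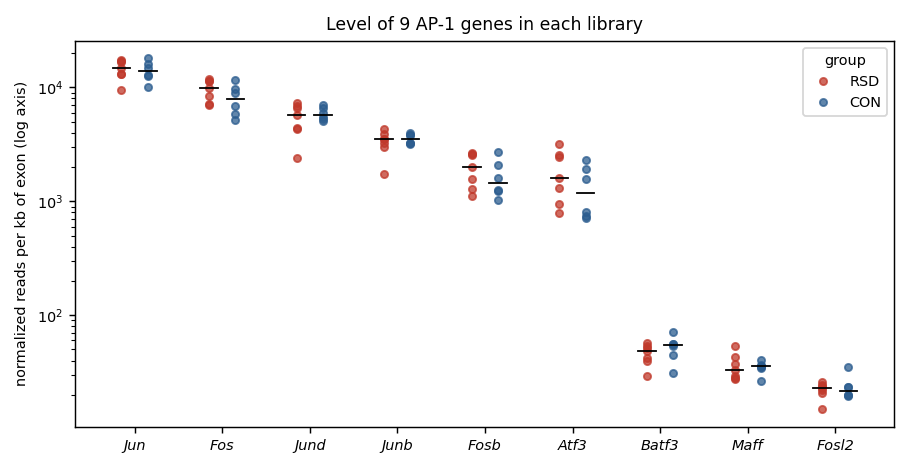
Level of each AP-1 gene in normalized reads per kilobase of exon (log axis), with 1 point per library, RSD (n = 7) left of CON (n = 6), and bars at the group medians. Jun, Fos, Jund, Junb, Fosb and Atf3 lie far above Batf3, Maff and Fosl2, and the groups overlap for every gene.

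By position (mm10, GENCODE M21 gene models), Fos lies at chr12:85473890-85477273 on the plus strand, Jun, a gene of 1 exon, at chr4:95049034-95052222 on the minus strand, and Atf3 at chr1:191170296-191218039 on the minus strand. Junb (chr8:84974484-84978718, minus) and Jund (chr8:70698949-70700616, plus, 1 exon) share a chromosome. The remaining 4 are Fosb (chr7:19302696-19310051, minus), Fosl2 (chr5:32135801-32157842, plus), Maff (chr15:79346621-79359076, plus) and Batf3 (chr1:191097847-191108945, plus). Whether reads were counted by strand is not given in the sources used here. Jund shares 877 of its 1668 exonic bases with the antisense gene Gm11175, so its level is uncertain; Jun shares 232 bases with antisense Junos, and Junb shares 173 with Prdx2, whose own level was low (156 ± 29.7 normalized reads in RSD, 165 ± 47.6 in CON, SD).

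Whether social defeat left a lasting difference in AP-1 transcripts is what the main comparison asks. No AP-1 gene passed the test between RSD and CON: limma on log2(value + 1) called 0 of the 9, and 0 of all 12496 genes tested (0%), at a Benjamini-Hochberg adjusted p under 0.05. All 9 passed the filter on low values. At an unadjusted p under 0.05 the count was 0 of the 9 and 500 of all genes (4%), edgeR called 0 genes and DESeq2 called 2, neither of them an AP-1 gene. The values of the 2 groups overlapped for each of the 9 genes, as for all but 0.032% of genes higher and 0.032% lower in RSD. The median difference over the 9 was 0.02 on the log2 scale, and 0.01 over all genes.

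Among the fos family genes, Fos ranged from 16596 normalized reads through a median of 23182 to 27764 in RSD, against 12118, 18454 and 27560.3 in CON. Its mean was higher in RSD by 0.29 ± 0.19 on the log2 scale (SE, limma adjusted p = 0.821), and the lowest values of the groups lay further apart than the highest. Fosb, a paralogue of Fos, ranged from 6996 through 12407 to 16718 in RSD, against 6462, 8972 and 16914 in CON, a difference of 0.26 ± 0.27 (limma adjusted p = 0.829). Fosl2, which encodes Fra-2, ranged from 145 through 221 to 251 in RSD, against 191, 209.7 and 340.3 in CON, and its highest value was that of CON 18. Its log2 difference was -0.08 ± 0.15 (limma adjusted p = 0.893).

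Among the jun family genes, Jun ranged from 30565 through 47548 to 55328 normalized reads in RSD, against 32226, 44432 and 57496 in CON. The groups covered nearly the same range, with a log2 difference of 0.04 ± 0.15 (limma adjusted p = 0.943). Junb ranged from 4012 through 8107 to 9903 in RSD, against 7336, 8114 and 9132 in CON, and Jund from 4037 through 9615 to 12250.2 in RSD, against 8384, 9595 and 11596 in CON. Both had their lowest value in RSD 8 and medians that were nearly equal between groups. Their log2 differences were -0.13 ± 0.16 for Junb (limma adjusted p = 0.846) and -0.20 ± 0.22 for Jund (limma adjusted p = 0.832).

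Of the relatives, Atf3 varied most, from 1707 through 3443 to 6885 normalized reads in RSD, against 1528, 2569 and 4988 in CON. Within each group its coefficient of variation was 49.5% in RSD and 51.1% in CON, the highest of the 9 genes, and its log2 difference of 0.44 ± 0.40 lay near 1 standard error (limma adjusted p = 0.821). Maff ranged from 71.7 through 86.2 to 139 in RSD, against 69.2, 92.5 and 105 in CON, with a difference of 0.02 ± 0.16 (limma adjusted p = 0.972). Batf3 ranged from 46.8 through 76.7 to 90.7 in RSD, against 49.6, 87.4 and 114 in CON, with a difference of -0.17 ± 0.19 (limma adjusted p = 0.838). Taken one gene at a time, two-sided exact permutation tests over the 1716 ways of splitting 13 samples into 7 and 6 gave p from 0.214 for Fos to 0.878 for Maff.

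Atf3, Fos and Jun, 3 of the 9 genes, were separated by sample number, and the other 6 overlapped. The samples carry numbers from 1 to 8 or from 10 to 19 in both groups, and the labels do not say what the numbers stand for, so a difference between the ranges cannot be assigned to any handling step. Atf3 had 3443, 5529.6, 5270.2 and 6885 normalized reads in RSD 10, 11, 12 and 13, and 2825, 1707 and 2044 in RSD 2, 7 and 8. In controls it had 3387, 4158 and 4988 in CON 17, 18 and 19, and 1615, 1750.4 and 1528 in CON 1, 4 and 5. All 7 libraries numbered 10 to 19 lay above all 6 numbered 1 to 8.

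Fos had 23182, 26952, 26632 and 27764 normalized reads in RSD 10, 11, 12 and 13, and 19597, 16840.5 and 16596 in RSD 2, 7 and 8. In controls it had 22603, 20806 and 27560.3 in CON 17, 18 and 19, and 12118, 13785 and 16101 in CON 1, 4 and 5. As for Atf3, the ranges of numbers did not overlap, and the lowest value of the higher range was that of CON 18. Jun had 47548, 54200.4, 55328 and 53124 in RSD 10, 11, 12 and 13, against 42206, 42036 and 30565 in RSD 2, 7 and 8. In controls it had 50837, 47574 and 57496 in CON 17, 18 and 19, against 32226, 40572 and 41289.5 in CON 1, 4 and 5. Again no library of the lower numbers reached the higher ones.

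**Figure D2:**
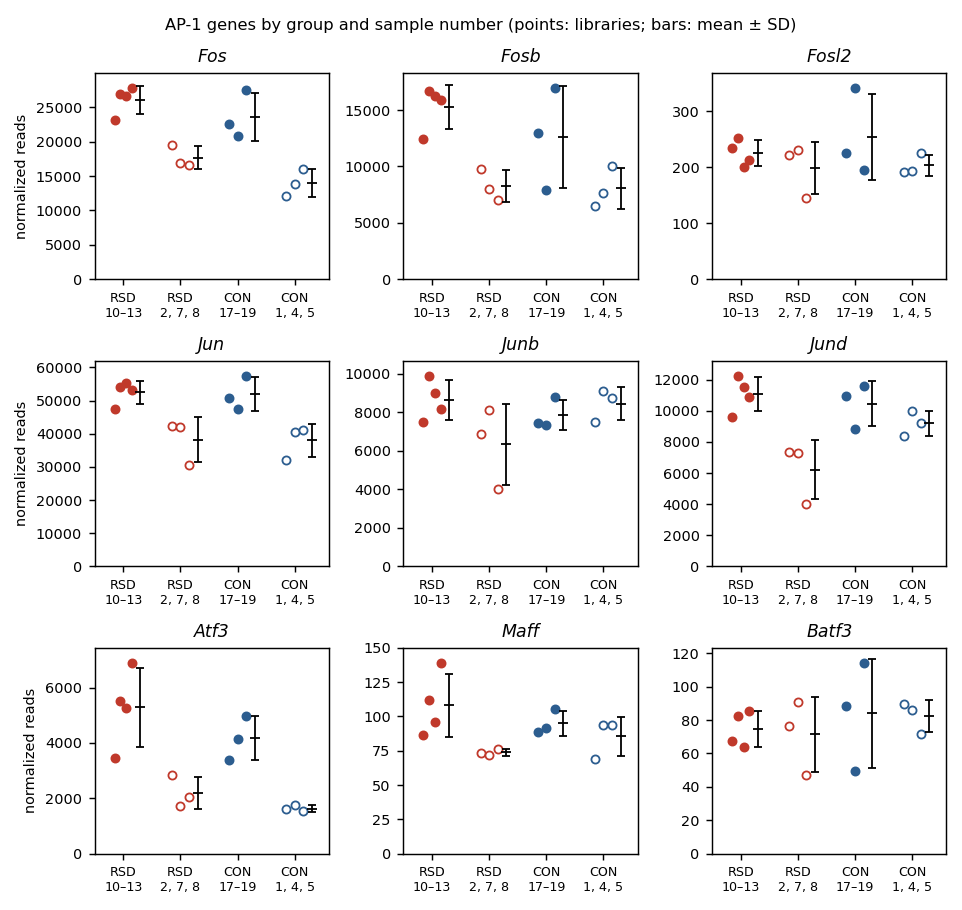
Normalized reads of each AP-1 gene in each library, by group and sample number (filled points, numbers 10 to 19; open points, numbers 1 to 8), with the mean ± SD beside each set of 3 or 4 libraries. For Atf3, Fos and Jun all filled points lie above all open points in both RSD and CON, whereas Batf3 and Fosl2 show no such split.

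In a fit over all 13 libraries with group as a covariate, added after these values were seen, limma called 3 of the 9 genes higher in numbers 10 to 19 than in 1 to 8, against 66 of all 12496 genes (0.528%). Atf3 rose 2.46-fold (log2 difference 1.30 ± 0.15, SE, limma adjusted p = 0.000783), to 4809 ± 1251 normalized reads in numbers 10 to 19, against 1912 ± 481 in numbers 1 to 8 (SD, n = 7 and 6). Fos rose 1.57-fold (0.65 ± 0.09, limma adjusted p = 0.00296) and Jun rose 1.38-fold (0.46 ± 0.09, limma adjusted p = 0.0379). By p-value these ranked 8th, 13th and 54th of all genes. The same 3 were the AP-1 genes whose ranges did not overlap, which was so, in that direction, for 0.624% of all genes.

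Fosb had 12407, 16718, 16221 and 15867 normalized reads in RSD 10 to 13 and 12984, 7886 and 16914 in CON 17 to 19. Among the lower numbers it had 9805, 8013 and 6996 in the RSD samples, with 6462, 7642 and 10058 in CON 1, 4 and 5. CON 18 was the only library of the higher numbers that fell among the lower ones. The log2 difference was 0.76 ± 0.16 (limma adjusted p = 0.0557). With 1 library left out, the limma adjusted p ranged from 0.000694 (without CON 18) to 0.181 (without RSD 8). The differences of Jund (0.55 ± 0.16, limma adjusted p = 0.16), Maff (0.35 ± 0.14, 0.292), Fosl2 (0.24 ± 0.14, 0.5) and Junb (0.22 ± 0.16, 0.591) did not pass, and that of Batf3 was 0.04 ± 0.20 (0.963). All 9 differences were positive, with a median of 0.46, and over all genes the median was -0.01 and 48.3% were positive.

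Within each group fewer of the 9 were called. Among controls, limma called 29 genes between CON 17, 18, 19 and CON 1, 4, 5 (0.232%), and Atf3 (1.34 ± 0.24, adjusted p = 0.0479) and Fos (0.76 ± 0.13, adjusted p = 0.0262) were 2 of them. Jun was not called there (0.45 ± 0.14, limma adjusted p = 0.244). Junb (-0.10 ± 0.20) and Batf3 (-0.05 ± 0.29) were negative, so that 7 of the 9 differences were positive among controls. All 9 were positive among RSD samples, where limma called 43 genes between RSD 10 to 13 and RSD 2, 7, 8 (0.344%), among them Atf3 (1.26 ± 0.22, adjusted p = 0.0447). Fos (0.56 ± 0.12), Jun (0.47 ± 0.13), Fosb (0.89 ± 0.23) and Jund (0.88 ± 0.18) had limma adjusted p between 0.0592 and 0.0845 there. Before adjustment the limma p of Fos was 0.000299 in RSD and 3.18e-05 in CON. The calls were close to the threshold: leaving out 1 library ended the Atf3 call among controls for CON 1, 4, 5, 18 and 19 and for RSD 7, 8, 11 and 12, and the Fos call for CON 1, 4 and 19 and RSD 12. The Atf3 call among controls was also lost with limma-voom quality weights (limma adjusted p = 0.0623, with Jun called in its place at 0.0267), without a filter on low values (0.0511) and without CON 18 and RSD 8 together (0.075). Among RSD samples the Atf3 call ended without CON 1, 4, 5 or 17 or RSD 8, 11, 12 or 13, after the GC correction (1.13, limma adjusted p = 0.107) and without CON 18 and RSD 8 together (1.22, 0.094).

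**Figure D3:**
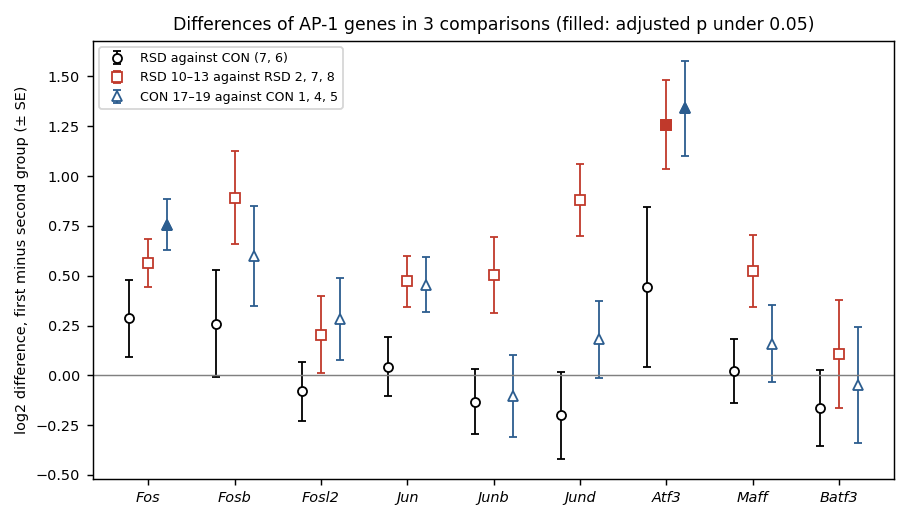
Log2 difference ± SE (limma) of each AP-1 gene for RSD against CON (7 and 6 libraries), RSD 10 to 13 against RSD 2, 7 and 8, and CON 17 to 19 against CON 1, 4 and 5, with filled symbols for an adjusted p under 0.05. No RSD against CON difference is filled; Atf3 is filled between sample numbers in both groups and Fos among controls, and these comparisons use the same libraries.

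Across both groups, the Atf3 and Fos calls between sample numbers held under each alternative tried, at log2 differences of 1.22 to 1.40 for Atf3 and 0.60 to 0.70 for Fos. Without CON 18 and RSD 8 the differences were 1.28 for Atf3, 0.67 for Fos and 0.41 for Jun, all still called, and Fosb (0.84) and Jund (0.45) were called as well. That fit called more genes of all kinds, 246 against 86 with all 13 libraries. The Jun call was lost when any of CON 1, 4, 5, 17 or 19 or RSD 7, 11, 12 or 13 was left out (limma adjusted p of 0.0542 to 0.0939), while its difference stayed between 0.39 and 0.50. Markers of neutrophils moved the other way: the 7 in the table summed to 11.6 to 142 normalized reads in numbers 10 to 19, against 182 to 1188 in numbers 1 to 8, without overlap, and S100a8, S100a9, Ngp, Camp and Ltf were called lower. Mmp8 and Retnlg were at or near 0 in both ranges. The monocyte and neutrophil product Chil3 was also called lower, at a mean of 0.59 normalized reads in numbers 10 to 19, against 43.3 in numbers 1 to 8. Yet the sum of the 5 monocyte markers in the table, Chil3 included, overlapped between the ranges. It was 808 to 8861 normalized reads in numbers 10 to 19, highest in CON 18, against 838 to 1115 in numbers 1 to 8. The part of these cells in the AP-1 values was not tested, and in sorted pools fewer cells of a type and less RNA per cell cannot be told apart.

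Within numbers 1 to 8, where RSD 2, 7 and 8 were set against CON 1, 4 and 5, limma called 0 of the 9 AP-1 genes and 0 of all genes (0%), but 3041 genes (24.3%) had an unadjusted p under 0.05, Fos, Junb and Jund among them. Jund had 7333, 7271 and 4037 normalized reads in RSD 2, 7 and 8, against 8384, 9994 and 9197 in CON 1, 4 and 5. Every RSD value lay below every CON value, as it did for 14.3% of all genes, with a log2 difference of -0.61 ± 0.19 (limma adjusted p = 0.113, unadjusted p = 0.00683). Junb had 6902, 8107 and 4012 in RSD 2, 7 and 8, against 7493, 9132 and 8735 in CON 1, 4 and 5, and the ranges overlapped through RSD 7 and CON 1. Its difference was -0.47 ± 0.20 (limma adjusted p = 0.181, unadjusted p = 0.0377). Fos lay the other way, with all 3 RSD values above all 3 CON values, as for 16.2% of all genes (0.34 ± 0.13, limma adjusted p = 0.141, unadjusted p = 0.0181).

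Jund and Junb have the most GC-rich transcripts of the 9 (67.2% and 62.6% of the bases of the longest transcript), and Fos the least (51.9%). RSD 8 and RSD 2, the libraries with the strongest negative trends with GC content, held the lowest and the second lowest Junb value of all 13 libraries. For Jund the lowest value was also in RSD 8, but the second lowest was in RSD 7, whose trend with GC content was 0.0965, and RSD 2 was next. Within numbers 1 to 8 all RSD libraries had lower GC trends (-0.72 to 0.10) than the CON libraries (0.29 to 0.48), so group and GC trend were not separate there. After correction for transcript GC content and length the differences within numbers 1 to 8 turned to 0.06 for Jund and 0.04 for Junb, while that of Fos was 0.46. Without RSD 8 they were -0.33 for Jund (limma adjusted p = 0.386) and -0.17 for Junb (0.696). Without CON 18 and RSD 8 together the Jund difference was again -0.33 and was called (limma adjusted p = 0.0461), and without RSD 7 Jund and Junb were both called, at -0.75 (0.0284) and -0.68 (0.0298). DESeq2 called Jund (-0.57, adjusted p = 0.0423), and limma-voom with quality weights called Jund (-0.39, 0.038) and Fos (0.43, 0.0184). These fits also called many other genes, where the main limma fit called 0. Without CON 18 and RSD 8 together 572 genes were called in all, and without RSD 7 it was 2435. Of the 12496 genes, DESeq2 called 818 and limma-voom 2655.

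**Figure D4:**
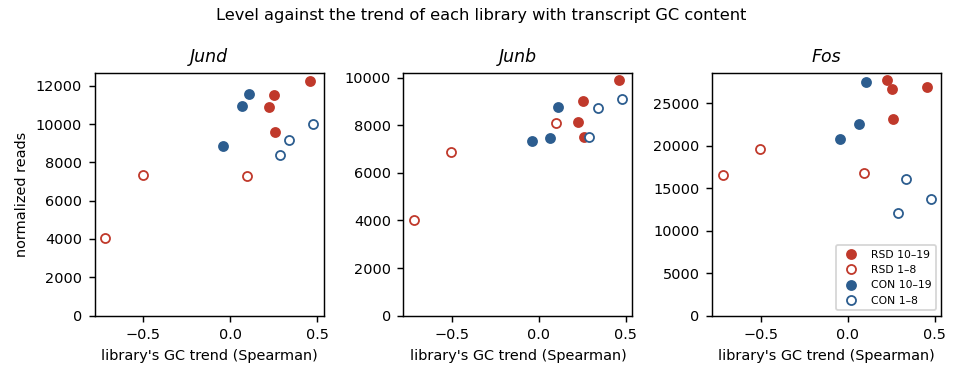
Normalized reads of Jund, Junb and Fos in each library against the library's trend with GC content (Spearman correlation, over genes, of the library's deviation from the mean of all libraries with transcript GC content), for RSD and CON, numbers 10 to 19 filled and 1 to 8 open. RSD 8, at -0.72, has the lowest Jund and Junb of all libraries. Fos separates by sample number. Among numbers 1 to 8, RSD libraries have lower GC trends (-0.72 to 0.10) and higher Fos than CON libraries (0.29 to 0.48).

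Within numbers 10 to 19, with RSD 10 to 13 against CON 17 to 19, limma called 0 of the 9 genes and 0 of all genes (0%), and none of the 9 had an unadjusted p under 0.05, against 5.52% of all genes. The largest AP-1 differences were 0.34 ± 0.23 for Fosb and 0.31 ± 0.22 for Atf3. Jund (0.09 ± 0.18) and Junb (0.13 ± 0.19) were positive there. The difference of the RSD effect between the ranges was 0.70 ± 0.26 for Jund (unadjusted p = 0.0194, limma adjusted p = 0.179) and 0.61 ± 0.28 for Junb (0.049, 0.229), again with no call in limma for any gene (0%) and 21.7% of all genes under an unadjusted 0.05, and both turned negative after the GC correction (-0.17 and -0.05).

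How the members varied with each other is described by rank correlations over the 13 libraries, which share groups, sample numbers and 2 libraries that stand apart. Fos tracked Atf3 (Spearman rho 0.929), Jun (0.912) and Fosb (0.879), and Jun tracked Fosb (0.918) and Jund (0.813). Junb tracked Jund (0.731) more than Fos (0.297), and Batf3 tracked neither Fos (0.022) nor Atf3 (-0.143). Among all other genes kept, the 3 most like Fos were Ppp1r15a (rho 0.973), which encodes the GADD34 phosphatase subunit of the integrated stress response, the small heat shock gene Hspb1 (0.962) and the zinc finger factor gene Klf6 (0.951). Those most like Jun were Dusp1 (0.956), a phosphatase that inactivates MAP kinases, Mafk (0.934), a small Maf gene, and Fosb (0.918). Those most like Fosb were Cyth2 (0.973), the small GTPase gene Rhob (0.956) and Aff1 (0.929), and those most like Atf3 were the small nucleolar RNA Snord12 (0.973), Tmem230 (0.973) and the small nucleolar RNA Snora5c (0.945).

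For the other 5 genes the likest were as follows. For Junb they were Fam219a (0.94), Nudt3 (0.934) and Sipa1 (0.929), and for Jund they were Neurl2 (0.962), Ttll4 (0.934) and the seryl-tRNA synthetase gene Sars (0.923). For Fosl2 they were the helicase gene Ddx11 (0.94), Myo1f (0.896) and Trim41 (0.89). For Maff they were Tmem132a (0.885), the cell cycle inhibitor gene Cdkn1a (0.863) and Klf2 (0.863), and for Batf3 AI837181 (0.857), Anapc7 (0.852) and Txndc11 (0.835).

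Other genes of the pathway were read by lists of their roles, and none was called between RSD and CON. Of 9 other basic leucine zipper genes tested, 6 were positive, with Atf4, the effector of the integrated stress response, at -0.17 ± 0.13, Mafk at 0.23 ± 0.22 and Maf at 0.09 ± 0.09 (limma adjusted p of 0.821 to 0.823). Batf (0.13 ± 0.25) and Jdp2 (0.08 ± 0.16), a repressor that pairs with Jun, were also not called, and no gene entry carried the symbol Fosl1. Of 21 MAP kinase pathway genes 9 were positive, and those of smallest p were Mapk3, which encodes ERK1 (-0.18 ± 0.07), Map3k8, a kinase of the inflammatory ERK branch (0.28 ± 0.13), and Mapk7, which encodes ERK5 (-0.25 ± 0.13), each at a limma adjusted p of 0.821. Of 13 genes for factors at AP-1 promoters 6 were positive, with the CREB coactivator gene Crtc3 at -0.21 ± 0.11, Mef2c at 0.09 ± 0.07 and Creb1 at 0.09 ± 0.09. Of 7 ubiquitin ligase genes for Jun turnover 5 were positive, with Det1 at -0.38 ± 0.16, Itch at 0.13 ± 0.07 and Rfwd2, the COP1 ligase gene, at 0.18 ± 0.10.

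Of 24 other immediate early genes 19 were positive in RSD against CON without a call, with the antiproliferative Btg2 at 0.22 ± 0.11 and the zinc finger factor genes Egr2 at 0.36 ± 0.26 and Klf4 at 0.32 ± 0.23. Of 19 genes with described AP-1 control 8 were positive, with Cd83 at -0.22 ± 0.16, the chemokine gene Ccl3 at -0.30 ± 0.30 and Plaur, the urokinase receptor gene, at -0.20 ± 0.21. Of 12 heat shock genes 10 were positive, with a median of 0.69 and values of 0.48 ± 0.20 for Hspa8, 0.79 ± 0.33 for Dnaja1 and 0.54 ± 0.23 for Hsp90ab1. The median of all genes was 0.01.

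By sample number, in the comparison added after the values were seen, the same lists differed. The lists were chosen with earlier results of these data known, so the counts are a description. In numbers 10 to 19 against 1 to 8, all 24 other immediate early genes were positive (median 0.46, against -0.01 over all genes) and 5 were called higher by limma, the nuclear receptor gene Nr4a1 (1.30 ± 0.19), Klf6 (0.99 ± 0.12), Klf2 (0.91 ± 0.15), Ppp1r15a (0.75 ± 0.12) and Dusp1 (0.61 ± 0.08). All 12 heat shock genes were positive (median 0.86) and 7 were called, among them Hspb1 (2.49 ± 0.31), Hsph1 (2.11 ± 0.41) and Dnajb1 (0.81 ± 0.15). Hspa1a (2.41 ± 0.42) and Hspa1b (2.49 ± 0.46) are near-identical copies whose reads may be shared, and Hsp90ab1 and Bag3 made up the 7. Of the 19 genes with AP-1 control 16 were positive (median 0.27) and 4 were called, Ptgs2 (1.81 ± 0.29), the inducible cyclooxygenase, Hmox1 (1.39 ± 0.14), haem oxygenase 1, Ccl4 (1.17 ± 0.14), a chemokine, and Mt1 (0.90 ± 0.19), a metallothionein.

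The remaining lists were nearer to the background of 0.528% called higher. Mafk (0.68 ± 0.13, limma adjusted p = 0.0253) was the only one called of 9 other basic leucine zipper genes, of which 4 were positive. None of 21 MAP kinase genes (13 positive), 13 promoter factor genes (6 positive) or 7 Jun turnover genes (3 positive) was called at an adjusted p under 0.05, while 1 gene in each of these 3 lists had an unadjusted p under 0.05. At least 887 of all 12496 genes were under that threshold too, since Maff, at an unadjusted limma p of 0.0207, ranked 887th.

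**Figure D5:**
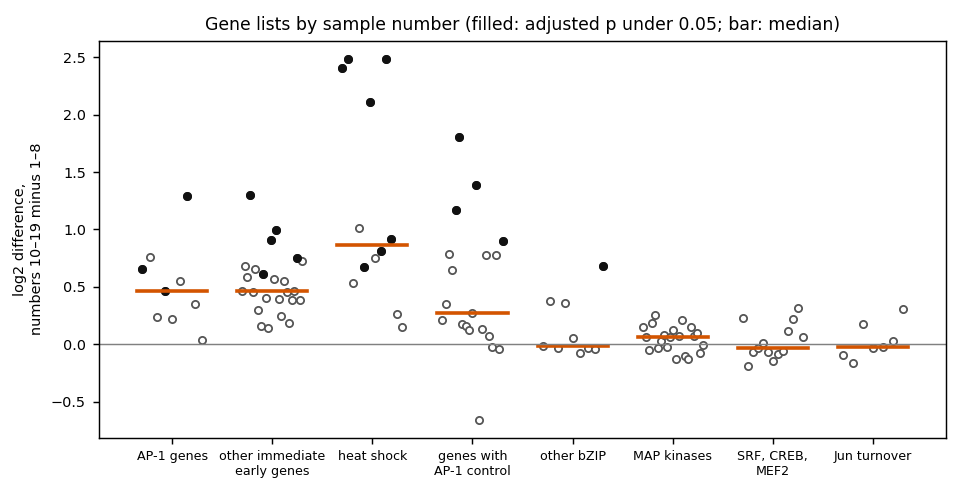
Log2 difference of each gene between numbers 10 to 19 and numbers 1 to 8 (limma, group as a covariate, a comparison added after the values were seen), by gene list, with filled points for an adjusted p under 0.05 and bars at the list medians. The AP-1, other immediate early and heat shock lists have medians of 0.46, 0.46 and 0.86, while the MAP kinase, promoter factor and turnover lists lie near 0.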

How the data were processed

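RNA of 7 RSD and 6 CON samples of sorted mouse microglia was sequenced. Per the labels' protocols, the PicoPure kit and then Ovation SoLo with AnyDeplete were used. STAR, mm10 and DESeq2 are named in the submitters' processing notes. No version, read counter or strand setting is given there. Each deposited signal is a read count divided by a size factor: 100% of values were whole reads times 1 factor per library, within 0.01 reads, so reads were recovered. PCR copies cannot be told from molecules. Of the symbols, 13790 were found in GENCODE M21, 559 by a RefSeq synonym, and 169 were unmatched; 1 occurred on 2 entries. No libraries agreed within counting noise (lowest chi-square per degree of freedom 4.36).

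Tests used limma 3.58.1 (trend, robust) on log2(value + 1), in R 4.3.3, over 12496 genes kept by filterByExpr (count minimum 10, total 15), with Benjamini-Hochberg adjustment over all of them. RSD was compared with CON over all 13 libraries and, with 4 means for group and number range, within ranges. Number ranges within a group used the same 4 means. Alternatives were edgeR 4.0.16, DESeq2 1.42.0, voom weights, TMM, pseudocounts 0.5 and 5, other filters, a GC and length correction and left-out libraries. The limma fits were tested on simulated data, with the spread estimated within group and number range. There, RSD against CON recovered 13.6% of 1.25-fold, 54.8% of 1.5-fold and 79.6% of 2-fold changes. For that comparison the simulated data held no difference between number ranges, which the real fit leaves in its spread. For genes that differ by range, such as Atf3, Fos and Jun, these shares are therefore likely too high. All 9 genes are described, with up to 3 genes of smallest p per list and the 3 genes most alike each by Spearman rho (SciPy 1.17.1). The genes and lists were chosen with earlier results of these data known.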

Additional observations from a re-analysis of the deposited data

Results flagged for a closer look

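Fosl2, which encodes the Fos family protein Fra-2, had 340.3 normalized reads in CON 18, the highest value in the CON group, while the other 5 CON libraries lay between 191 and 225. The gap to the nearest library was 0.769 of the whole range of the group of 6, above the Dixon limit for that size. Among the 27 sets of 4, 6 or 7 libraries examined, some sharing libraries, this was the only such value. Chance alone gives such a value in about 1 of 20 sets, so 1 among 27 is not more than chance gives. CON 18 is also the library with the highest summed border macrophage markers (33130 normalized reads, against at most 8564 in the other libraries) and monocyte markers (8861, against at most 1115). Of the border macrophage markers, Pf4 had 219 normalized reads there (against a median of 2.12 in the other libraries) and Ms4a7 had 1839 (against 3.45), and no gene entry carried the symbol Lyve1. The part of these cells in the Fosl2 value was not tested.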

How the results depend on the processing

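Between RSD and CON, no AP-1 gene was called under any alternative, while DESeq2 called 2 genes in all. No paired analysis was possible because RSD and CON share no sample number. With RSD against CON set in numbers 1 to 8, where limma called no gene, DESeq2 called 818 genes and 1 AP-1 gene, limma-voom with quality weights 2655 and 2, and the fit without CON 18 and RSD 8 572 and 1; single libraries left out gave 0 to 2435 genes and 0 to 2 AP-1 genes, with the highest counts without RSD 7 (2435) and CON 18 (1271). In numbers 10 to 19 DESeq2 called 2 genes and the fit without CON 18 and RSD 8 called 1, and single libraries left out gave 0. For the difference of the RSD effect between ranges, DESeq2 called 382 genes, limma-voom 1534 and the fit without CON 18 and RSD 8 463, against 0 in limma and 0 to 1457 with 1 library left out (1457 without RSD 7), none of them an AP-1 gene.

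For numbers 10 to 19 against 1 to 8, DESeq2 called 255 genes and 5 AP-1 genes, limma-voom 265 and 5, and the fit without CON 18 and RSD 8 246 and 5, against 86 (66 of them higher) and 3 in limma. With 1 library left out it was 33 to 172 genes and 2 to 5 AP-1 genes: 172 without CON 18, and 33 to 57 without CON 1, 4, 5 or 19 or RSD 7, 8, 11, 12 or 13. For CON 17, 18, 19 against CON 1, 4, 5, DESeq2 called 146 genes, limma-voom 297, and the fit without CON 18 and RSD 8 577, against 29, and without a filter on low values 1 AP-1 gene was called, not 2; 1 library left out gave 4 to 47 genes and 0 to 2 AP-1 genes. For RSD 10 to 13 against RSD 2, 7, 8, where limma called 43 genes and 1 AP-1 gene, DESeq2 called 684 and 5, limma-voom 2223 and 6, the fit without CON 18 and RSD 8 414, genes with a mean of at least 50 gave 26, and the GC and length correction gave 18 and 0; 1 library left out gave 0 to 2252 genes and 0 to 5 AP-1 genes (2252 without RSD 7, 1207 without CON 18, 0 without RSD 8). The cause of these shifts was not tested.

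Differences that turned sign were not called, in limma or in the alternative. With the GC and length correction, RSD against CON gave 0.011 for Junb. In numbers 1 to 8 it gave 0.089 for Fosl2, 0.036 for Junb, 0.059 for Jund, 0.13 for Maff and 0.20 for Batf3, and in numbers 10 to 19 -0.052 for Jun, -0.018 for Junb and -0.11 for Jund. The difference of effects became -0.054 for Junb and -0.17 for Jund. Between number ranges the same correction gave 0.090 for Junb and 0.12 for Batf3 in CON, -0.32 for Batf3 in RSD and -0.12 for Batf3 over both. In limma-voom, RSD against CON gave 0.12 for Fosl2, 0.013 for Jund and 0.062 for Ccl3, in numbers 1 to 8 0.098 for Fosl2, in numbers 10 to 19 0.089 for Fosl2, -0.051 for Jun and -0.027 for Jund, and Batf3 between number ranges was 0.26 in CON and -0.036 in RSD. Batf3 in CON was 0.034 in edgeR and 0.032 in DESeq2, Jun in numbers 1 to 8 was -0.0064 with TMM, and Maff in RSD against CON was -0.0021 with number range as a covariate. Without CON 18 and RSD 8, RSD against CON gave 0.13 for Fosl2 and 0.075 for Ccl3, in numbers 1 to 8 0.16 for Fosl2 and 0.022 for Batf3, and in numbers 10 to 19 0.10 for Fosl2, -0.043 for Jun and -0.031 for Jund. Between number ranges that fit gave 0.29 for Batf3 in CON and -0.0071 for Fosl2 and -0.17 for Batf3 in RSD.

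With 1 library left out, RSD against CON ranged from -0.13 to 0.041 for Fosl2, -0.048 to 0.14 for Jun, -0.20 to 0.015 for Junb and -0.077 to 0.080 for Maff. In numbers 1 to 8 it ranged from -0.098 to 0.22 for Fosb, -0.18 to 0.16 for Fosl2, -0.11 to 0.16 for Jun and -0.45 to 0.022 for Batf3, and in numbers 10 to 19 from -0.30 to 0.10 for Fosl2, -0.043 to 0.093 for Jun, -0.031 to 0.16 for Jund and -0.43 to 0.16 for Batf3. Between number ranges Batf3 ranged from -0.31 to 0.29 in CON, -0.17 to 0.30 in RSD and -0.10 to 0.18 over both, and Fosl2 from -0.0071 to 0.33 in RSD.

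Libraries held 9.76 to 12.3 M reads and number ranges hold 3 or 4 libraries of a group, which limits the precision of these differences.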
